A study of Homo sapiens with 16 samples.

Results

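The genes described here are 9 leukocyte integrins and adhesion molecules: ITGAM, ITGAX, ITGAL and ITGB2 of the β2 integrins, ITGA4 and ITGA5 of the β1 integrins, the intercellular adhesion molecules ICAM1 and ICAM3, and the selectin ligand SELPLG. They were taken by symbol from the 23575 symbols of a deposited table of raw counts, and all 9 were found and passed the filter on low counts in every comparison. The cells were HL-60, an established human promyelocytic leukaemia line, labelled wild type in all groups. The 16 libraries fell into 10 groups: 12 libraries were of differentiated cells (dHL-60), and 4 were of cells left undifferentiated (uHL-60). The dHL-60 groups had 2 libraries each and were untreated, or received 1 or 10 µg/ml lipoteichoic acid (LTA, a polymer of the cell envelope) of Staphylococcus aureus, for 4 or 24 h. The uHL-60 groups had 1 library each and were untreated or received 1 µg/ml LTA for 4 or 24 h. The labels do not name the agent that differentiated the cells, and a cultured line has no endothelium, flow or tissue to adhere to.

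Integrins are pairs of an α and a β chain that a leukocyte uses to hold on to other cells and to matrix. ITGB2 (CD18) is the shared β chain of the leukocyte integrins, and ITGAL, ITGAM and ITGAX are its partners in LFA-1, Mac-1 (complement receptor 3) and p150,95 (complement receptor 4). ITGA4 pairs with ITGB1 or ITGB7 to bind VCAM-1, MAdCAM-1 or fibronectin, and ITGA5 pairs with ITGB1 as the classical fibronectin receptor. ICAM1 and ICAM3 are immunoglobulin-type ligands of LFA-1, and ICAM1 also binds Mac-1. SELPLG encodes PSGL-1, the mucin by which neutrophils roll on P-selectin before integrins arrest them.

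Positions are of RefSeq on GRCh38, and strands of GENCODE 29. The β2 partners lie together on chromosome 16: ITGAL at 30472742 to 30523185, ITGAM at 31259975 to 31332877 and ITGAX at 31355176 to 31382999. They are all on the plus strand. ITGB2 lies on chromosome 21 at 44885953 to 44928815 (minus). ITGA4 is on chromosome 2 at 181457205 to 181538940 (plus) and ITGA5 on chromosome 12 at 54395261 to 54419266 (minus). ICAM1 (10271120 to 10286615, plus) and ICAM3 (10333776 to 10339624, minus) are neighbours on chromosome 19, and SELPLG is on chromosome 12 at 108621895 to 108633894 (minus).

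The promoters of the member with the largest early response to LTA and of the Mac-1 α chain are shown, because these genes followed different time courses in the counts. RefSeq promoter windows were found for 5 of the 9 genes (ITGA4, ITGA5, ITGAM, ICAM1 and ICAM3), and not for ITGAX, ITGAL, ITGB2 and SELPLG. Each line below gives the 250 bases before the listed start, in the direction of transcription, on build GRCh38.p14. The ICAM1 window is chr19:10270870-10271119 and the ITGAM window is chr16:31259725-31259974, both on the plus strand. Capitals mark matches to GGAAATTCC, to TATAAA or to GAGGAA.
ICAM1: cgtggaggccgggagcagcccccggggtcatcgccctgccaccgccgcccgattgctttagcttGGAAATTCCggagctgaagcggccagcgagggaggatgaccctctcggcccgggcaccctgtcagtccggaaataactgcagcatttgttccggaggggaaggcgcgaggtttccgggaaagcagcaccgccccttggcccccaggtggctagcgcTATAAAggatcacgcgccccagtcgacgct
ITGAM: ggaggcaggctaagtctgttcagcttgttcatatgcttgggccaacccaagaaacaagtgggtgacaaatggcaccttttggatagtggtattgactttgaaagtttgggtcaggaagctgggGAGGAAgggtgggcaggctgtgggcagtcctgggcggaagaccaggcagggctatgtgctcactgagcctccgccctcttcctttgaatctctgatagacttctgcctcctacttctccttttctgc
In ICAM1 the κB-like run GGAAATTCC begins 186 bases before the start, and TATAAA begins 30 bases before it. In ITGAM the PU.1-type core GAGGAA begins 127 bases before the start. Both strands were searched, and the listed matches lie on the strand of the gene and do not overlap each other. Among 35116 windows of this length, GGAAATTCC occurred in 0.413%, TATAAA in 10.7% and GAGGAA in 23.6%. GGAAATTCC was chosen after the ICAM1 sequence was read, and a match is a description of letters only. The AP-1 element TGANTCA, present in 6.57% of windows, had no match in any of the 5 genes, and the NF-κB consensus (5.21% of windows) matched once, in ITGA5. GAGGAA also occurred in 1 of the 3 windows of ICAM3.

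Library totals ran from 9653374 to 16530277 counts in dHL-60 and from 15356752 to 20157081 in uHL-60. Levels are CPM, read counts scaled to a common library total with a correction for library composition. The uHL-60 columns of the table followed another symbol order than the rest, and they were realigned. None of the 9 genes was among the 1343 symbols that moved, so their own counts were the same either way. Whether the libraries of a pair were grown apart is not in the labels, and p-values here are relative to a spread that may be purely technical. The summed level of 15 mature neutrophil markers was 254 to 283 CPM in uHL-60, 5488 to 7308 CPM in untreated dHL-60 at 4 h and 1603 to 1689 CPM at 24 h. FCGR3B and CXCR1, which mark mature blood neutrophils, stayed at or below 1.46 and 3.17 CPM in all groups. The 7 eosinophil and basophil markers summed to 4154 to 4478 CPM in uHL-60 and to 2.27 to 21.4 CPM in dHL-60, and PRG2 alone made up 4137 to 4460 CPM of the uHL-60 sums. Endothelial markers summed to less than 1 CPM in every group. Red cell and platelet markers differed between dHL-60 groups at 4 h. They summed to 34.4 to 37.8 CPM untreated, 0.745 to 0.945 with 1 µg/ml LTA and 22.8 to 26.1 with 10 µg/ml. Of these 8 markers, 6, 8 and 7 were under 1 CPM. Lymphocyte markers summed to 10.98 to 12.1 CPM in untreated dHL-60 at 24 h, 115 to 152 CPM with 1 µg/ml and 211 to 293 CPM with 10 µg/ml. Of these 10 markers, 9 were under 1 CPM untreated and 8 at each dose, and CD3D, CD3G and CD5 were at 0 in these groups. Only 3 passed the filter on low counts, and 1 of them rose at each dose. The source of these levels was not tested.

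**Figure D1:**
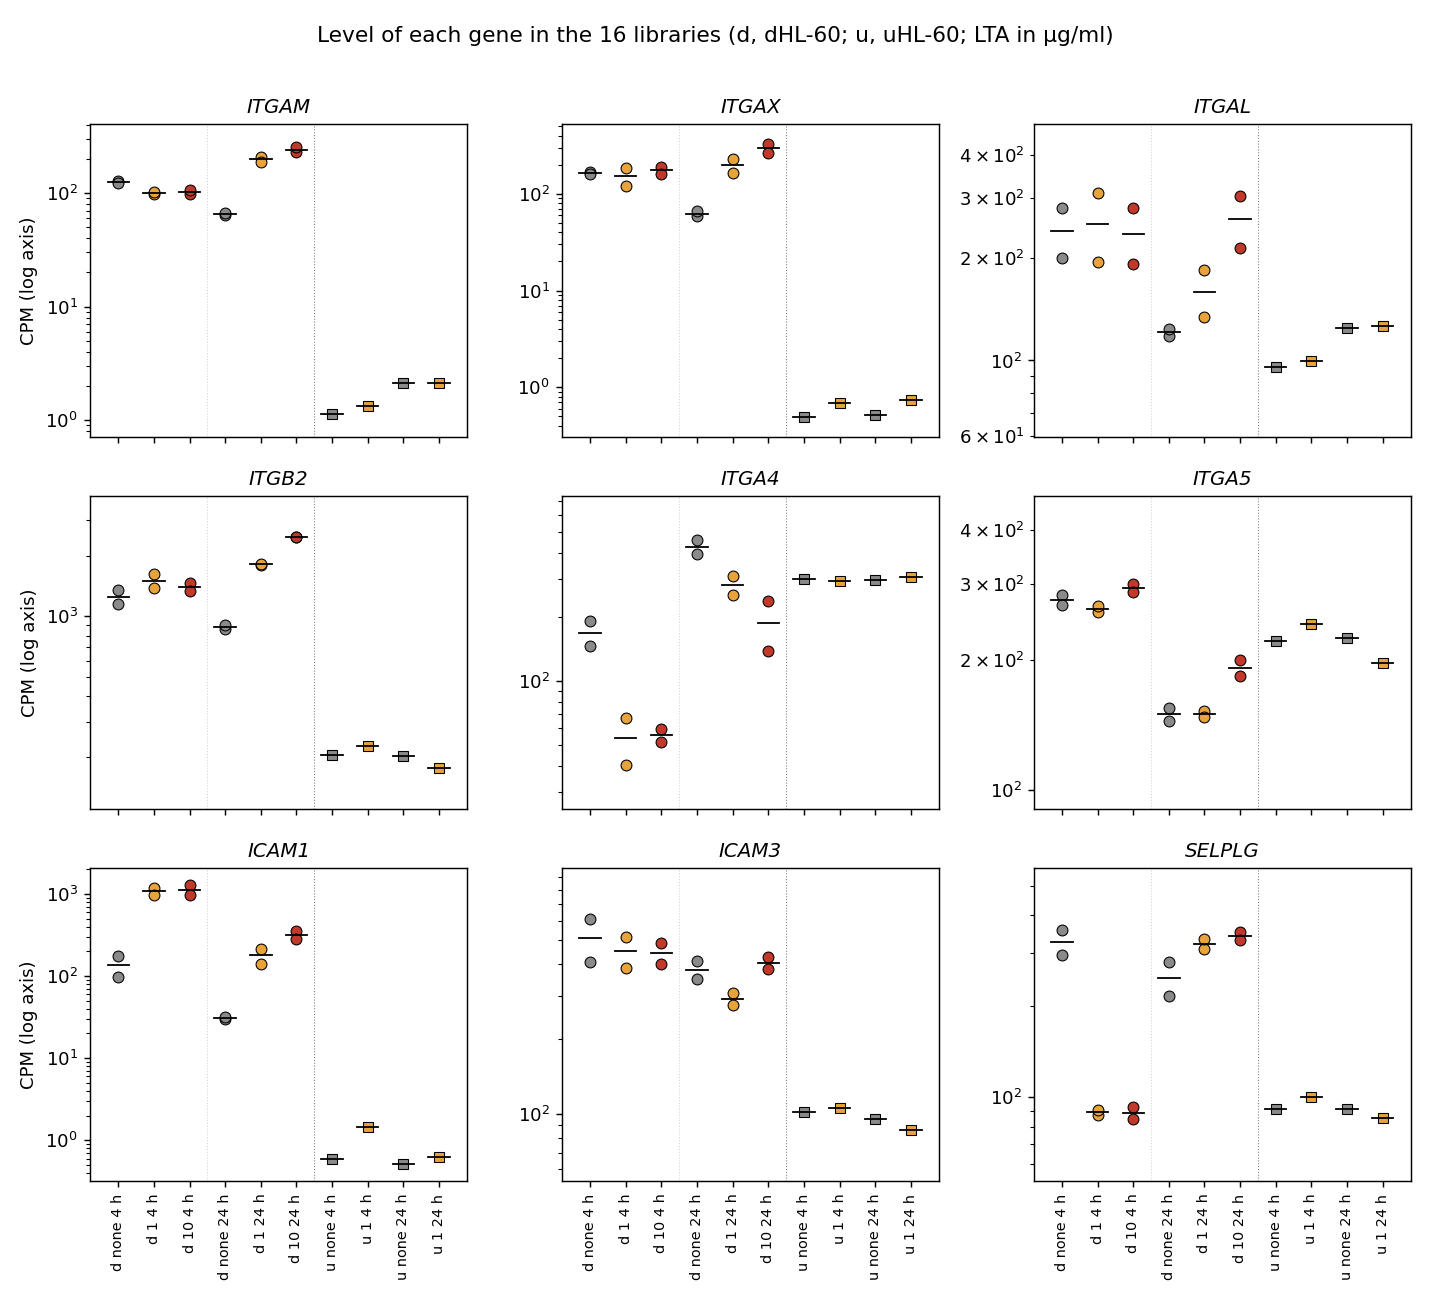
CPM of the 9 genes (one panel each, log axis) in the 16 libraries, by group along the x axis; circles are dHL-60 libraries, squares uHL-60 libraries and bars group means. ICAM1 is at 972 to 1282 CPM at 4 h with LTA and at or below 353 CPM elsewhere, ITGAM and ITGB2 are highest at 24 h with LTA, and ITGA4 is lowest at 4 h with LTA.

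ITGB2 was the most abundant member per length of its exons in untreated dHL-60 at 4 h, at 184 ± 21.2 CPM per kb (SD, n = 2). ICAM3 followed at 173 ± 48.1 and SELPLG at 131 ± 18.4 CPM per kb, and the spreads of the first pair overlapped. ITGAL, ICAM1 and ITGA5 lay between 36.4 and 37.1 CPM per kb, and ITGAX, ITGAM and ITGA4 between 21.3 and 23.0 CPM per kb. In uHL-60 at 4 h without LTA the order per length was different, with ITGA4 first at 38.2, SELPLG at 36.6 and ICAM3 at 34.7 CPM per kb. There ITGAM, ICAM1 and ITGAX were at 0.2, 0.16 and 0.07 CPM per kb. ICAM3 carries a limit: 71.2% of its exon bases lie opposite exons of another gene, and whether reads were counted by strand is unknown. For ICAM1 the share is 23.6%, for ITGAL 9.56% and for ITGB2 4.46%, while ITGAM, ITGAX, ITGA4 and SELPLG share no exon bases.

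The first question was how differentiated cells differ from their undifferentiated parents before any LTA. Of the 9 genes, 6 were higher in dHL-60 and 0 were lower. Among 11884 genes tested, 29.7% were higher and 28.3% were lower at an adjusted p under 0.05 (edgeR quasi-likelihood test, Benjamini-Hochberg adjustment, also the rule for "called", "rose" and "fell" throughout). The median log2 fold change was 2.12 over the members and 0.01 over all genes. A batch common to the uHL-60 libraries and the state of the cells cannot be told apart. Neutrophil markers were higher too, 10 of 12 tested, while 3 of 3 eosinophil and basophil markers were lower. Of 5 macrophage and monocyte markers, 4 were higher and 1 lower. Promyelocyte markers were mixed, with 2 of 7 higher and 3 lower. Their part in the result was not tested.

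ITGAX, the α chain of complement receptor 4, had 167 and 159 CPM in untreated dHL-60 at 4 h and 58.6 and 65.8 CPM at 24 h. Untreated uHL-60 had 0.495 CPM at 4 h (95% exact binomial interval 0.237 to 0.910, from 10 counts) and 0.514 CPM at 24 h. The groups were far apart, with a log2 fold change of 7.65 ± 0.36 (SE; adjusted p = 1.18e-06). ITGAM, the Mac-1 α chain, had 128 and 123 CPM at 4 h and 64.5 and 66.7 CPM at 24 h in dHL-60, against 1.14 and 2.11 CPM in uHL-60. Its log2 fold change was 5.74 ± 0.41 (adjusted p = 1.16e-05). ICAM1 had 175 and 97.1 CPM at 4 h and 30.2 and 31.6 CPM at 24 h, against 0.594 and 0.514 CPM, from 12 and 10 counts. Its log2 fold change was 6.99 ± 0.50 (adjusted p = 1.13e-05), and the uHL-60 level is set by few counts, so intervals there cover counting error only. The main fit takes each difference to be the same at both times, and these 3 were not. Leaving out the uHL-60 library of 4 h compares the states at 24 h alone. The differences were then 6.88 for ITGAX, 4.94 for ITGAM and 5.87 for ICAM1. Leaving out that of 24 h compares them at 4 h alone and gave 8.27, 6.71 and 7.75. Each of these values rests on a single uHL-60 library.

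Their shared or companion molecules rose by less from a higher base. ITGB2 went from 204 and 202 CPM in uHL-60 to between 862 and 1352 CPM in dHL-60, a log2 fold change of 2.34 ± 0.22. ICAM3 went from 102 and 95.5 CPM to between 350.3 and 610.3 CPM (2.12 ± 0.23), and SELPLG from 91.3 and 91.5 CPM to between 216 and 358 CPM (1.6 ± 0.21). No library of either state fell within the range of the other for these 3 genes. ITGAL, the LFA-1 α chain, was already at 95.6 and 124 CPM in uHL-60 and overlapped dHL-60 (0.56 ± 0.30, adjusted p = 0.14). ITGA4 (-0.25 ± 0.31, adjusted p = 0.502) and ITGA5 (-0.19 ± 0.22, adjusted p = 0.461) were not called, and at 4 and 24 h they lay on opposite sides of uHL-60. ITGA4 was at 146 and 191 CPM in dHL-60 at 4 h and 460.2 and 393 CPM at 24 h, around 302 and 297 CPM in uHL-60. ITGA5 was at 283 and 268 CPM and then at 144 and 155 CPM, around 222 and 225 CPM. Without the uHL-60 library of 24 h, which compares the states at 4 h alone, ITGAL was at 1.26 and ITGA4 at -0.91. Without that of 4 h, which compares them at 24 h alone, ITGA5 was at -0.61. With both uHL-60 libraries, ITGAL was called with no filter on low counts (adjusted p = 0.039).

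**Figure D2:**
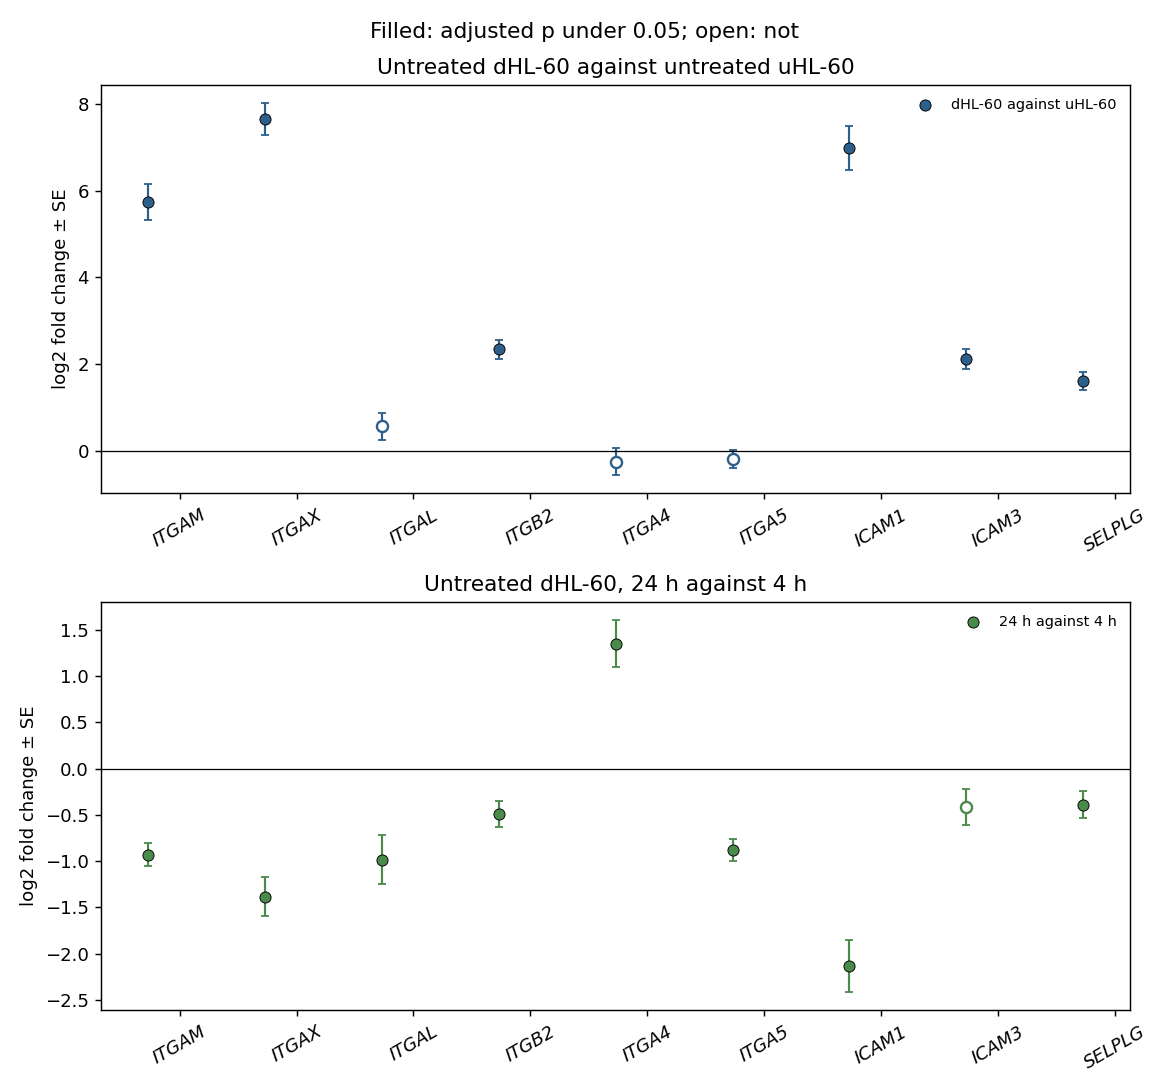
Log2 fold change ± SE of each gene, top for untreated dHL-60 against untreated uHL-60 and bottom for untreated dHL-60 at 24 h against 4 h; filled points passed an adjusted p of 0.05. The upper panel runs to 7.65 for ITGAX, and in the lower panel ITGA4 alone lies above 0.

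Untreated dHL-60 did not hold these levels in culture. From 4 to 24 h, 7 of the 9 genes fell and 1 rose, where 23.1% of all genes fell and 17.8% rose. The member median was -0.88 and that of all genes -0.04. ICAM1 fell most, from 175 and 97.1 CPM to 30.2 and 31.6 CPM (-2.13 ± 0.28, adjusted p = 5.48e-05). ITGAX (-1.38 ± 0.21), ITGAM (-0.93 ± 0.12) and ITGA5 (-0.88 ± 0.12) also fell, with adjusted p between 6.70e-05 and 0.000208. ITGAL (-0.98 ± 0.26), ITGB2 (-0.49 ± 0.14) and SELPLG (-0.39 ± 0.15) passed the test too. ITGA4 was the one that rose, by 1.35 ± 0.26 (adjusted p = 0.000993). ICAM3 was at 610.3 and 409 CPM at 4 h and overlapped its 24 h level (-0.42 ± 0.20, adjusted p = 0.108). The count of called members was 5 rather than 8 without untreated replicate 1 of 4 h, and again 5 without untreated replicate 1 of 24 h; ITGAL, ITGB2 and SELPLG were the calls lost in both. ITGB2 was lost without untreated replicate 2 of 24 h as well (adjusted p = 0.0506), and ICAM3 was called without untreated replicate 2 of 4 h (-0.68, adjusted p = 0.0149). With only the groups compared, SELPLG (adjusted p = 0.15) and ITGB2 (adjusted p = 0.0755) were not called. With no filter on low counts, SELPLG was not called (adjusted p = 0.064) and ICAM3 was (adjusted p = 0.0465). The neutrophil markers fell beside them, 10 of 13 tested, and promyelocyte markers rose in 3 of 7 tested, from summed levels of 9112 to 12022 CPM to 17165 to 22533 CPM. Their part in the result was not tested.

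LTA was then compared with untreated dHL-60 at each time. At 4 h with 1 µg/ml, 1 of 9 genes rose and 3 fell, where 18.7% of 11866 genes rose and 20.1% fell. With 10 µg/ml, 1 rose and 2 fell, where 20% of genes rose and 21.3% fell. Both doses share the same untreated libraries. The member medians were -0.09 and -0.02, and those of all genes -0.04 and -0.04. Of all called genes, 48.2% and 48.5% were higher, and with upper-quartile scaling 37.0% and 36.4% were.

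ICAM1 was the gene that rose. Its 2 untreated libraries at 4 h had 175 and 97.1 CPM, those with 1 µg/ml had 1174 and 972 CPM, and those with 10 µg/ml had 1282 and 974 CPM. Every treated library exceeded every untreated one. The log2 fold changes were 2.98 ± 0.28 (adjusted p = 2.53e-06) and 3.06 ± 0.28 (adjusted p = 1.89e-06), 7.89-fold and 8.33-fold. Per kb of exon, ICAM1 reached 289.5 ± 38.9 and 304.5 ± 58.7 CPM per kb (SD, n = 2). In each of these 4 libraries that exceeded ITGB2, its receptor's β chain, at 220 ± 25.5 and 205.5 ± 12 CPM per kb.

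SELPLG and ITGA4 fell at the same time. SELPLG went from 358 and 295 CPM to 87.7 and 90.7 CPM with 1 µg/ml and to 84.7 and 92.9 CPM with 10 µg/ml. These levels overlapped the 85.4 to 100.1 CPM of the 4 uHL-60 libraries. The log2 fold change was -1.87 ± 0.15 at both doses (adjusted p = 8.30e-07 and 6.95e-07). ITGA4 went from 146 and 191 CPM to 40.2 and 67.4 CPM and to 59.7 and 51.7 CPM, with log2 fold changes of -1.64 ± 0.26 (adjusted p = 0.000267) and -1.59 ± 0.26 (adjusted p = 0.000312). In contrast to SELPLG, these were the lowest ITGA4 levels of all 10 groups.

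The β2 chains moved little at 4 h. ITGAM went from 128 and 123 CPM to 97.8 and 101 CPM with 1 µg/ml, a log2 fold change of -0.34 ± 0.12 (adjusted p = 0.0436), and to 97.3 and 107 CPM with 10 µg/ml (-0.30 ± 0.12, adjusted p = 0.0682). The call at 1 µg/ml was lost when any 1 of the 4 libraries was left out (adjusted p between 0.0735 and 0.165) and with DESeq2 (adjusted p = 0.0616), RLE scaling (0.0597), no filter (0.104) or the 4 libraries alone (0.117). With upper-quartile scaling the 10 µg/ml value was called (-0.43, adjusted p = 0.0109). ITGB2 had 1352 and 1148 CPM untreated and 1342 to 1618.5 CPM with LTA, with log2 fold changes of 0.26 ± 0.14 and 0.17 ± 0.14. ITGAL, ITGAX, ITGA5 and ICAM3 had log2 fold changes between -0.20 and 0.11 over both doses, with adjusted p between 0.45 and 0.959. Their SEs ran up to 0.26, for ITGAL. At 4 h, 3 of 13 neutrophil markers rose at each dose, 3 and 5 fell, and 3 and 4 of 7 promyelocyte markers fell. The sum of the 12 macrophage and monocyte markers was 596 to 763 CPM untreated and 1127.5 to 1340.2 CPM with LTA. Of these markers, 8 were under 1 CPM in each of these groups and 5 could be tested. With 1 µg/ml 2 rose and 2 fell, and with 10 µg/ml 3 rose and 2 fell. Their part in these results was not tested.

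**Figure D3:**
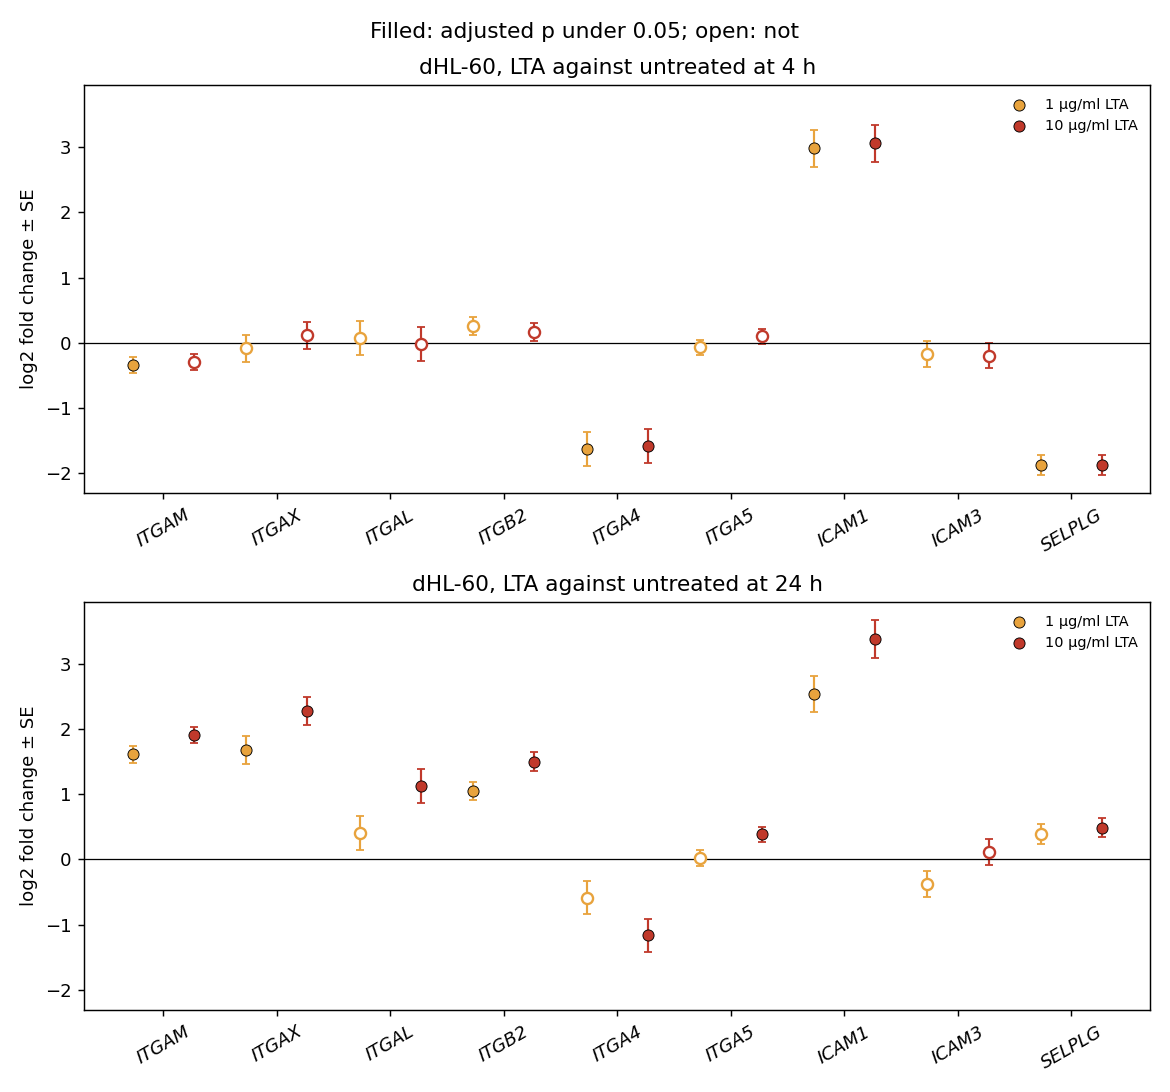
Log2 fold change ± SE of each gene in dHL-60 with 1 (orange) or 10 µg/ml LTA (red) against untreated cells at 4 h (top) and 24 h (bottom); filled points passed an adjusted p of 0.05. At 4 h ICAM1 lies near 3, and ITGA4 and SELPLG lie between -1.5 and -2; at 24 h ITGAM, ITGAX and ITGB2 lie above 1 at both doses.

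At 24 h the pattern was different. With 1 µg/ml, 4 of 9 genes rose and 0 fell, where 13.9% of genes rose and 7.26% fell. With 10 µg/ml, 7 rose and 1 fell, where 23.6% rose and 19% fell. The member medians were 0.41 and 1.13, against 0.01 and -0.01 over all genes. Of the genes called with 1 µg/ml, 65.7% were higher, and 55.0% with upper-quartile scaling. The untreated comparator at 24 h had itself lost part of its 4 h level for 7 of these genes.

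ITGAM had 64.5 and 66.7 CPM untreated, 209 and 188 CPM with 1 µg/ml and 228 and 255 CPM with 10 µg/ml. All 4 treated libraries exceeded every other library of the study, those at 4 h included. The log2 fold changes were 1.61 ± 0.13 (adjusted p = 1.33e-06) and 1.91 ± 0.13 (adjusted p = 1.12e-07). ITGAX had 58.6 and 65.8 CPM untreated, 229 and 164 CPM with 1 µg/ml and 329.6 and 262 CPM with 10 µg/ml, with log2 fold changes of 1.68 ± 0.21 and 2.27 ± 0.22. Its treated libraries at 1 µg/ml overlapped those of 4 h, and those at 10 µg/ml were the highest of the series. ITGB2 had 862 and 909.9 CPM untreated, 1804 and 1827.5 CPM with 1 µg/ml and 2471 and 2463 CPM with 10 µg/ml. Its log2 fold changes were 1.05 ± 0.14 (adjusted p = 0.000151) and 1.5 ± 0.14 (adjusted p = 2.94e-06), and its pairs were the closest of any member at these doses.

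ICAM1 remained higher with LTA at 24 h than in the untreated cells of that time, although below its 4 h level. It had 30.2 and 31.6 CPM untreated, 215 and 141 CPM with 1 µg/ml and 353 and 280.2 CPM with 10 µg/ml. The log2 fold changes were 2.54 ± 0.28 (adjusted p = 2.63e-05) and 3.38 ± 0.29 (adjusted p = 1.03e-06), 5.83-fold and 10.4-fold over untreated cells of that time. The 1 µg/ml level overlapped that of untreated cells at 4 h.

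ITGAL had 118 and 124 CPM untreated and 185 and 134 CPM with 1 µg/ml (0.41 ± 0.26, adjusted p = 0.296). It rose with 10 µg/ml to 305 and 214 CPM (1.12 ± 0.26, adjusted p = 0.00379). ITGA4 had 460.2 and 393 CPM untreated and 252 and 309 CPM with 1 µg/ml (-0.59 ± 0.25, adjusted p = 0.116), groups that did not overlap and that were called with no filter (adjusted p = 0.00193) or with the 4 libraries alone (adjusted p = 0.00416). It fell with 10 µg/ml to 138 and 236 CPM (-1.16 ± 0.25, adjusted p = 0.00241). SELPLG, which had fallen at 4 h, stood at 216 and 280.5 CPM untreated and 309 to 353 CPM with LTA, with log2 fold changes of 0.39 ± 0.15 (adjusted p = 0.077) and 0.49 ± 0.15 (adjusted p = 0.0164). ITGA5 differed at 10 µg/ml alone (0.38 ± 0.12, adjusted p = 0.018), and ICAM3 at neither dose (-0.38 ± 0.20 and 0.11 ± 0.20). The ITGA5 call was lost with no filter (adjusted p = 0.0579) and with only the groups compared (adjusted p = 0.0582), and ICAM3 with 1 µg/ml was called with only the groups compared (-0.40, adjusted p = 0.0456). With 10 µg/ml replicate 1 left out, 5 rather than 8 members were called, and ITGAL, ITGA5 and SELPLG were the calls lost. Without untreated replicate 1 of 24 h, ITGA5 (adjusted p = 0.111) and SELPLG (adjusted p = 0.179) were lost. With 1 µg/ml, SELPLG was called without untreated replicate 2 (0.58, adjusted p = 0.0429).

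Other myeloid genes moved with these integrins at 24 h. The neutrophil markers summed to 1603 to 1689 CPM untreated, 7354 to 7393 CPM with 1 µg/ml and 13121 to 14313 CPM with 10 µg/ml, and 8 of 13 tested rose at the higher dose. LTF was at 0 in untreated cells, and 5 or 6 of the 15 markers were under 1 CPM in these groups. The 12 macrophage and monocyte markers summed to 195 to 199, 804 to 851 and 1604 to 1699.8 CPM, of which CD14 made up 138 to 146, 562 to 617 and 1224 to 1366 CPM. All 5 that could be tested rose with 10 µg/ml, while 7 or 8 of the 12 were under 1 CPM in each of these groups and MSR1 was at 0 in untreated cells and with 10 µg/ml. Promyelocyte markers fell, 7 of 7 at both doses, to sums of 6352 to 9433 and 4876 to 6034 CPM. In bulk RNA a different share of cells of a type and a different amount of RNA per cell cannot be told apart, and the part of these markers in the integrin results was not tested.

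The responses at 24 and 4 h were compared as an interaction. With 1 µg/ml, the log2 response of 4 members was more positive at 24 h than at 4 h, and that of 0 more negative. Among all genes, 13.3% were more positive and 7.41% more negative. With 10 µg/ml the counts were 5 and 0, where 19.7% of genes were more positive and 14% more negative. SELPLG (2.26 ± 0.21 and 2.36 ± 0.21) and ITGAM (1.95 ± 0.18 and 2.20 ± 0.18) differed most between times. For SELPLG this was a fall at 4 h (-1.87 at both doses) against smaller values above 0 at 24 h (0.39 and 0.49). ITGAX (1.76 ± 0.30 and 2.16 ± 0.30) and ITGB2 (0.79 ± 0.20 and 1.33 ± 0.20) followed, and ITGAL was called at 10 µg/ml (1.15 ± 0.37, adjusted p = 0.0292). Without 1 µg/ml replicate 2 of 4 h or untreated replicate 1 of 24 h, the ITGB2 difference at 1 µg/ml was not called (adjusted p = 0.0603 and 0.0553). The ITGAL difference lost its call without any 1 of 5 of its 8 libraries (adjusted p between 0.0622 and 0.139). The response of ICAM1 did not differ detectably between times (-0.44 ± 0.37 and 0.32 ± 0.37), and that of ITGA4 at 1 µg/ml was just short of the threshold (1.05 ± 0.36, adjusted p = 0.0549). It passed with DESeq2 (adjusted p = 0.0189), no filter (7.7e-05) or the 8 libraries alone (0.0493).

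The 10-fold step in dose was compared directly. At 4 h, 0 members were called, where 0.00843% of genes, a single gene, were called and 216 genes had an unadjusted p under 0.05. The member log2 differences between doses lay between -0.09 and 0.20. At 24 h, 0 members were called, where 3.82% of genes were called and 2670 genes had an unadjusted p under 0.05. The libraries of the doses overlapped at 24 h for SELPLG and not for the other members. With 2 libraries a dose such separation says little, and its share over all genes was not counted. ICAM1 (0.84 ± 0.26, adjusted p = 0.0905), ITGB2 (0.45 ± 0.14, adjusted p = 0.0926) and ITGA5 (0.36 ± 0.12, adjusted p = 0.102) came closest. This result was sensitive to the test: DESeq2 called 5 members, the same edgeR model without the filter on low counts also 5, and edgeR on the 4 libraries alone 3 (ICAM1, ITGAL and ITGAX). The calls over all genes moved as well, from 453 in the main fit to 765, 1354 and 800 in these settings.

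In uHL-60 no member was called for LTA over both times, where 0.209% of genes were called and 296 of 11020 had an unadjusted p under 0.05. DESeq2 called 1 gene in all and 0 members. ICAM1 had 12 counts untreated and 25 with LTA at 4 h, a ratio of 2.42 (95% exact interval 1.17 to 5.29), and 10 and 10 counts at 24 h (1.21, 0.452 to 3.24). These intervals compare 2 libraries and cover counting error only. ITGAM and ITGAX stayed at 10 to 41 counts in each library. For the well-counted members the ratio of LTA to untreated lay between 0.971 (ITGA4) and 1.11 (ITGB2) at 4 h and between 0.875 (ITGA5) and 1.04 (ITGA4) at 24 h.

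The response to 1 µg/ml LTA was tested for a difference between the states. At 4 h, the log2 response of 0 members was more positive in dHL-60 than in uHL-60, and that of 2 more negative. Among 12603 genes, 5.44% were more positive and 4.91% more negative. Of all genes called there, 52.5% were more positive, 41.9% with upper-quartile scaling and 63.0% with DESeq2. The 2 members were SELPLG (-2.01 ± 0.26, adjusted p = 0.000413) and ITGA4 (-1.59 ± 0.44, adjusted p = 0.0317). Both fell with LTA in dHL-60 (-1.87 and -1.64), while their ratios of LTA to untreated in uHL-60 were 1.10 and 0.971. At 24 h, the response of 2 members was more positive in dHL-60 and that of 0 more negative, where 1.35% of genes were more positive and 0.278% more negative. These were ITGAM (1.59 ± 0.32, adjusted p = 0.0219) and ITGB2 (1.22 ± 0.24, adjusted p = 0.021). ICAM1, the gene with the largest fold change in dHL-60, was not called (1.72 ± 0.91 at 4 h, adjusted p = 0.273, and 2.25 ± 1.07 at 24 h, adjusted p = 0.364), with 10 to 25 counts in each uHL-60 library. With no filter on low counts it was called at both times (adjusted p = 0.0269 and 0.0301). The spread of the single uHL-60 libraries was taken to equal that of dHL-60 pairs. The ITGA4 call was lost without untreated replicate 2 or 1 µg/ml replicate 1 of 4 h (adjusted p = 0.0658 and 0.0725), and both 24 h calls were lost without 1 µg/ml replicate 1 (adjusted p = 0.0648 for ITGAM and 0.0653 for ITGB2). The ITGB2 call was also lost without either untreated library of 24 h (adjusted p = 0.0668 and 0.0555).

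Because ITGB2 must pair with an α chain to reach the surface, the make-up of its measured partners was described per kb of exon. In uHL-60, ITGAL made up 97.6% to 98.2% of the summed ITGAL, ITGAM and ITGAX level in the 4 libraries. In untreated dHL-60 its share was 44.8% ± 5.16 at 4 h and 47.9% ± 0.42 at 24 h (SD, n = 2), with ITGAM at 27% ± 2.62 and 29.5% ± 0.50. LTA for 4 h left the ITGAL share at 49.2% ± 4.31 and 45.6% ± 5.66. LTA for 24 h gave an ITGAL share of 28.0% ± 1.63 with 1 µg/ml and 32.0% ± 4.53 with 10 µg/ml, below every other dHL-60 library. ITGAM then made up 40.3% ± 3.82 and 34.5% ± 6.36, and ITGAX 31.7% ± 2.12 and 33.5% ± 1.84. The level of ITGB2 was 1.3 to 2.12 times the partner sum in uHL-60 and 2.22 to 3.49 times it in dHL-60. The fourth known partner, ITGAD, was at or below 0.0234 CPM per kb on average in every group. These shares are of RNA, with exon lengths from GENCODE 29, and were not tested.

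**Figure D4:**
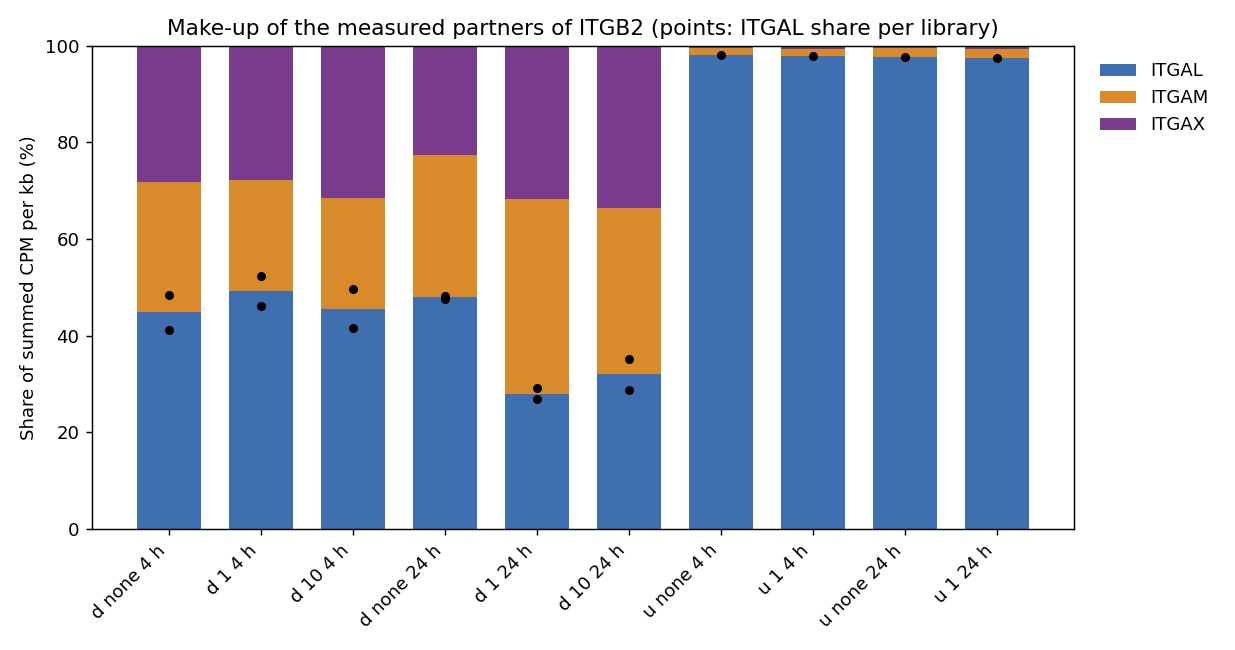
Group mean share (%) of ITGAL, ITGAM and ITGAX in their summed CPM per kb of exon, stacked by group; black points are the ITGAL share of each library. ITGAL makes up at least 97.6% in uHL-60, 41.1% to 52.3% in dHL-60 at 4 h or untreated, and 26.9% to 35.2% in dHL-60 after 24 h with LTA.

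The fibronectin-binding α chains went separate ways. Per kb, ITGA4 was 0.589 ± 0.132 times ITGA5 in untreated dHL-60 at 4 h and 0.196 ± 0.0658 and 0.181 ± 0.0134 times it with 1 and 10 µg/ml LTA. At 24 h the ratio was 2.75 ± 0.445 untreated, 1.80 ± 0.297 with 1 µg/ml and 0.947 ± 0.401 with 10 µg/ml. In uHL-60 it was 1.16 to 1.49. The β chains of ITGA4 are ITGB1 and ITGB7. ITGB7 went from 52.7 and 47.0 CPM to 17.6 and 17 CPM with 1 µg/ml and 16.3 and 17.9 CPM with 10 µg/ml at 4 h (-1.53 ± 0.19 and -1.54 ± 0.19, adjusted p = 2.77e-05 and 2.36e-05). At 24 h it was at 5.56 to 8.80 CPM in all 6 dHL-60 libraries, and untreated and treated cells overlapped with 1 µg/ml. It had fallen in untreated cells from 4 to 24 h (-2.84 ± 0.20, adjusted p = 5.11e-07). ITGB7 was higher in untreated dHL-60 than in uHL-60 (1.81 ± 0.58, adjusted p = 0.0241). This call was lost without untreated dHL-60 replicate 2 of 4 h (1.73). It was also lost without the uHL-60 library of 4 h (0.52), which compares the states at 24 h alone. ITGB1 was not called at 4 h (0.47 ± 0.20 and 0.42 ± 0.20, adjusted p = 0.0797 and 0.115). It was called there with no filter at both doses (adjusted p = 0.0165 and 0.0351), and with 1 µg/ml by DESeq2 (0.0438), without untreated replicate 2 (0.043) and without 1 µg/ml replicate 1 (0.0382). ITGB1 rose at 24 h (0.99 ± 0.20 and 0.90 ± 0.20, adjusted p = 0.00328 and 0.0028). ITGB1 was lower in untreated dHL-60 than in uHL-60 (-1.08 ± 0.18, adjusted p = 0.000913). Opposite-strand exons cover 42.1% of ITGB7, which limits that value.

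Other adhesion genes were followed in 4 lists. Of 20 further integrin subunits, 12 passed the filter in dHL-60, and 3 rose and 1 fell at 4 h at either dose, where 18.7% and 20% of all genes rose and 20.1% and 21.3% fell. The count of 3 is thus near the background and that of 1 below it. With 1 µg/ml the 3 became 5 without untreated replicate 2. ITGB8, a β chain that binds latent TGF-β, went from 4.62 ± 3.77 CPM to 78.0 ± 35.6 and 83.9 ± 21.1 CPM (SD, n = 2; log2 fold changes 4.04 ± 0.43 and 4.15 ± 0.43). Without untreated replicate 2 these were 5.31 and 5.41, and without untreated replicate 1 they were 3.44 and 3.54. ITGA6, a laminin receptor chain, rose at 4 h (1.12 ± 0.16 and 1.16 ± 0.16) and fell at 24 h (-0.61 ± 0.16 and -1.0 ± 0.16). Its call at 24 h with 1 µg/ml was lost without any 1 of 3 of the 4 libraries (adjusted p between 0.0614 and 0.0945).

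Of 30 listed genes of integrin activation and cytoskeletal linkage, 27 passed the filter, with 11 higher and 8 lower at 4 h at each dose, again where 18.7% to 20% of all genes were higher and 20.1% to 21.3% lower. At 24 h 15 were higher and 3 lower with 1 µg/ml, and 16 and 2 with 10 µg/ml, with list medians of 0.54 and 0.70. All genes had 13.9% higher and 7.26% lower with 1 µg/ml and 23.6% and 19% with 10 µg/ml. The 15 became 9 without 1 µg/ml replicate 1. SRC, a tyrosine kinase of outside-in signalling, rose at 4 h from 54.7 ± 6.28 to 339.6 ± 27.3 and 355 ± 20.9 CPM. It rose again relative to untreated cells at 24 h, from 2.77 ± 0.52 to 20.4 ± 2.30 and 63.7 ± 0.21 CPM. LYN and RAP1B, the latter a small GTPase that turns integrins on, rose at 4 h by 1.88 ± 0.14 and 1.38 ± 0.16 with 1 µg/ml. The focal adhesion protein PXN (2.32 ± 0.24 and 2.76 ± 0.24) rose at 24 h. In untreated dHL-60 against uHL-60, 15 of 26 tested were higher and 4 lower, where 29.7% and 28.3% of all genes were. Leaving out each library gave 10 to 18 higher, with 10 and 18 in the absence of the uHL-60 library of 4 h and of 24 h.

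**Figure D5:**
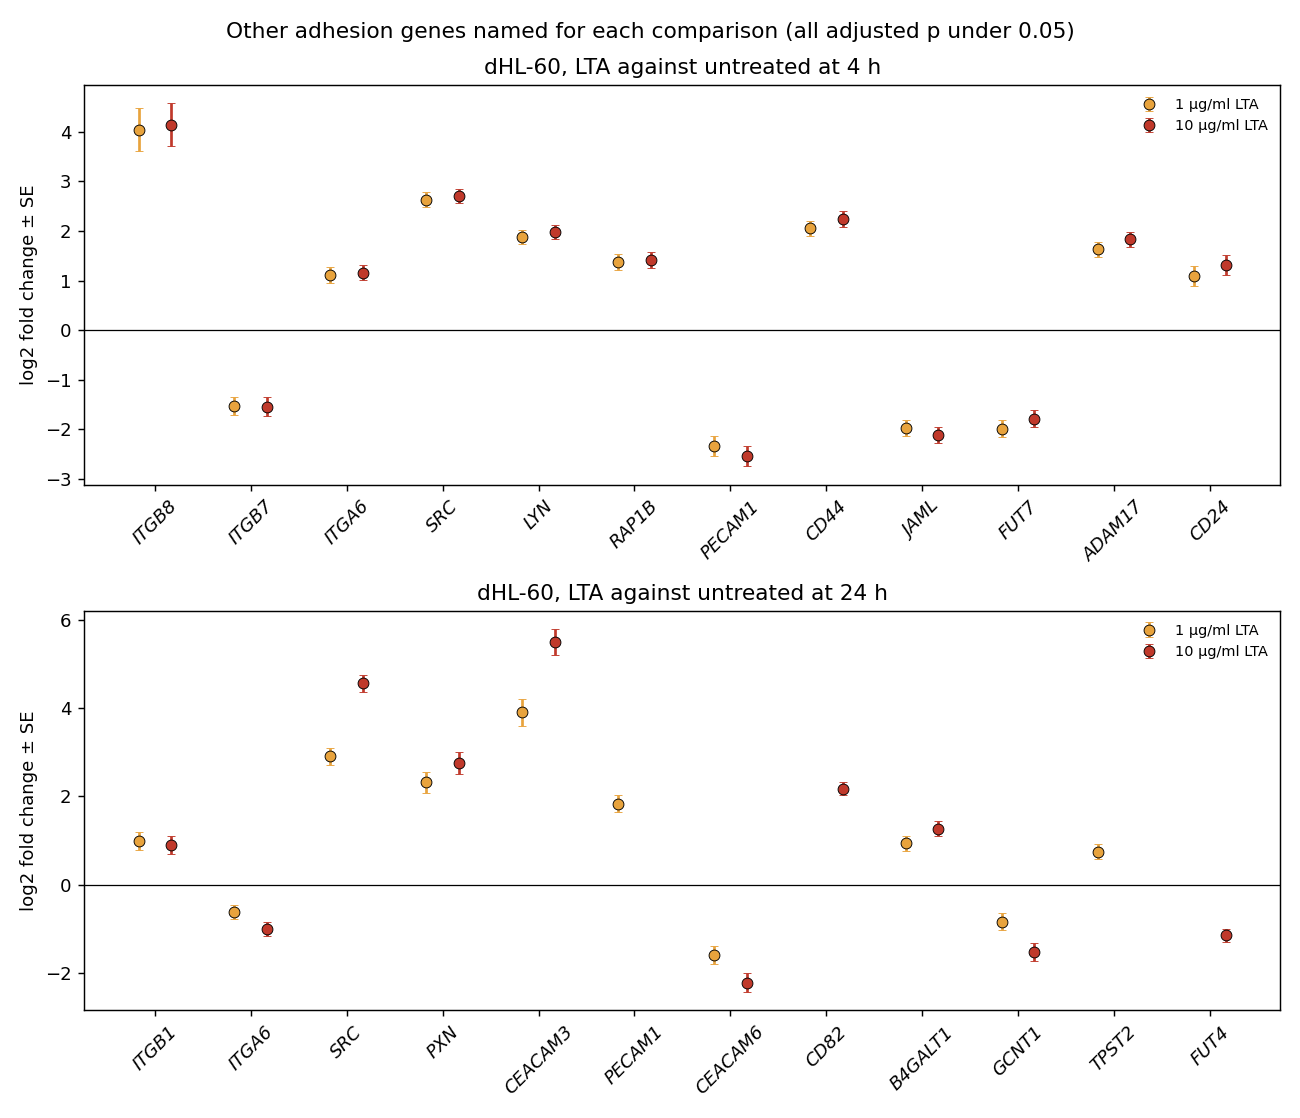
Log2 fold change ± SE of further adhesion genes in dHL-60 with 1 (orange) or 10 µg/ml LTA (red) against untreated cells at 4 h (top) and 24 h (bottom), all with an adjusted p under 0.05; a missing point means that the naming rule did not take the gene at that dose. PECAM1 lies at -2.34 and -2.54 at 4 h and at 1.84 with 1 µg/ml at 24 h.

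Among 30 other immunoglobulin-type and leukocyte adhesion molecules, 23 passed the filter, with 8 higher and 5 lower at 4 h with 1 µg/ml and 9 and 4 with 10 µg/ml. Among all genes, 18.7% and 20% were higher at 4 h, and the lower counts are near the background of 20.1% and 21.3%. At 24 h the counts were 13 and 3, then 15 and 3, with list medians of 0.54 and 0.98, where 13.9% and 23.6% of all genes were higher and 7.26% and 19% lower. With 1 µg/ml the 13 became 8 without either untreated library, 6 without 1 µg/ml replicate 1 and 10 without replicate 2, and the 3 became 1 or 2. PECAM1, which guides leukocytes through endothelial junctions, fell at 4 h from 256 ± 75.6 to 50.8 ± 6.35 and 43.8 ± 5.90 CPM, and JAML from 344 ± 21.3 to 87.7 ± 10.7 and 79.6 ± 12.8 CPM. CD44, the hyaluronan receptor, rose from 429.5 ± 12.7 to 1789.9 ± 25.5 and 2019 ± 218 CPM. At 24 h with 1 µg/ml PECAM1 was higher than in untreated cells (1.84 ± 0.19), as was CEACAM3 at both doses (3.90 ± 0.30 and 5.49 ± 0.30), while CEACAM6 fell (-1.59 ± 0.21 and -2.22 ± 0.22). CD82, a tetraspanin, rose with 10 µg/ml (2.17 ± 0.15). At 24 h the naming rule did not take PECAM1 with 10 µg/ml or CD82 with 1 µg/ml, so these values are not given.

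The fourth list held 18 selectins and enzymes of selectin ligand synthesis, of which 15 passed the filter, with 5 higher and 3 lower at 4 h at each dose, where 18.7% to 20% of all genes were higher and 20.1% to 21.3% lower, so that 3 is about the background. The 5 became 3 with 10 µg/ml when its replicate 1 was left out. FUT7, the fucosyltransferase that makes PSGL-1 able to bind selectins, fell with SELPLG at 4 h, from 82.6 ± 11.6 to 20.8 ± 1.31 and 23.9 ± 3.85 CPM. ADAM17, a protease that sheds surface proteins, rose from 59.7 ± 2.57 to 185 ± 15.4 and 211 ± 36.4 CPM. At 24 h the list had 2 higher and 2 lower with 1 µg/ml and 3 and 4 with 10 µg/ml, where 13.9% and 23.6% of all genes were higher and 7.26% and 19% lower. Leaving out each library gave 1 to 2 in both directions with 1 µg/ml, and 2 to 3 higher and 2 to 4 lower with 10 µg/ml. GCNT1, which builds the branched glycans of PSGL-1, fell (-0.84 ± 0.20 and -1.52 ± 0.20), and B4GALT1 rose (0.93 ± 0.17 and 1.27 ± 0.17). The GCNT1 call with 1 µg/ml was lost without 1 µg/ml replicate 1 (-0.79, adjusted p = 0.0775).

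Across the 12 dHL-60 libraries, the genes whose log2 CPM ran most like each member among 11865 others were found by Pearson r, given as a description over libraries that share groups. ICAM1 ran with PTAFR (r = 0.996), the receptor of platelet-activating factor, and with TFAP2A (0.994). SELPLG ran with KLHL17 (0.995) and TPCN1 (0.989), and ITGA4 with OIP5-AS1 (0.994) and CCDC6 (0.984). ITGAM ran with SIGLEC9 (0.984) and PROS1 (0.974), ITGAX with PI4K2A (0.975) and PPM1M (0.967), and ITGB2 with MVP (0.981) and ALDH1A2 (0.971). ITGA5 ran with PFDN5 (0.979), ITGAL with FAM89B (0.959) and ICAM3 with ERGIC3 (0.951), and these last 2 values were the lowest of the 9 genes. No member was among the nearest 2 genes of another member.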

How the data were processed

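The deposited table holds raw counts, whole numbers of reads per gene symbol and library, made by the authors without normalization. Build GRCh38, edgeR 3.36.0, DESeq2 1.28.0, featureCounts 2.0.1 (Subread), HISAT2 2.1.0 and fastp 0.20.0 are listed in the submitters' processing notes without role or order. Per the labels' protocols, total RNA went into a stranded mRNA library kit; the strand setting of the counting and the annotation are not given in the sources used here. Groups and replicate numbers came from the sample titles.

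The uHL-60 columns were realigned from a plain character order to the listed order of symbols. On the 1343 symbols this moves, Spearman rho between untreated dHL-60 (replicate 1) and uHL-60 at 4 h was 0.215 as deposited and 0.734 realigned, against 0.905 on the other symbols. After realignment 5730 symbols had 0 counts in every library.

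Counts were tested with edgeR 4.0.16 in R 4.3.3 (quasi-likelihood F test, two-sided, TMM scaling, filterByExpr, Benjamini-Hochberg over all genes tested, call at an adjusted p under 0.05), a script also tested on simulated data. Contrasts within dHL-60 used its 12 libraries, untreated dHL-60 against uHL-60 used 6 with time as an additive term, LTA in uHL-60 used 4 with time as an additive term, and differences in response between states used all 16. The SE is the log2 fold change divided by the root of F. Levels are CPM with TMM factors over 16 libraries. Likeness used log2 CPM with a prior count of 2. Alternatives were RLE and upper-quartile scaling, no filter on low counts, DESeq2 1.42.0, a replicate block, only the groups compared, uHL-60 columns as deposited, only unmoved symbols, plain library totals and each library left out. The members, gene lists and tests were chosen with earlier results of these data known. Beside the 9 members, ITGB1 and ITGB7 were always followed, and each list gave the 3 called genes with the largest absolute log2 fold change among those with a mean of at least 5 CPM and libraries that do not overlap; some genes this rule takes are not reported here. Gene positions are of RefSeq, and strands, exon lengths and shared exon bases of GENCODE 29 on GRCh38. Promoter sequences are of RefSeq on GRCh38.p14.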

Additional observations from a re-analysis of the deposited data

Results flagged for a closer look

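The values here are differences between 2 responses to LTA that passed the interaction test of edgeR at an adjusted p under 0.05, on the log2 scale. Between 24 and 4 h (24 h minus 4 h) in dHL-60 with 1 µg/ml they were 2.26 for SELPLG, 1.95 for ITGAM, 1.76 for ITGAX and 0.79 for ITGB2. With 10 µg/ml they were 2.36 for SELPLG, 2.20 for ITGAM, 2.16 for ITGAX, 1.33 for ITGB2 and 1.15 for ITGAL. SELPLG fell at 4 h at both doses and had a log2 fold change above 0 at 24 h, called with 10 µg/ml and not with 1 µg/ml. Both doses share their untreated libraries, so they are not separate evidence.

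Between dHL-60 and uHL-60 with 1 µg/ml (dHL-60 minus uHL-60) the differences were -1.59 for ITGA4 and -2.01 for SELPLG at 4 h, and 1.59 for ITGAM and 1.22 for ITGB2 at 24 h. Each uHL-60 arm of these differences was 1 library.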

How the results depend on the processing

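Of 498 recomputed values of single members other than those leaving out a library, 452 kept direction and side of the threshold, 28 passed it newly, 9 no longer passed and 9 changed sign. Of 402 that left out a library, 348 kept both, 8 passed newly, 29 no longer passed and 17 changed sign. The dHL-60 groups had 2 libraries each, and in uHL-60 ITGAM, ITGAX and ICAM1 rest on 10 to 41 counts a library. The cause of these changes was not tested.

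At 24 h between the doses, 0 members were called, against 5 with no filter on low counts, 5 with DESeq2, 3 with the replicate block and 3 with only the groups compared. Leaving out each library gave 0 to 1 there (1 being ITGA4, without 10 µg/ml replicate 2), 5 to 8 for 10 µg/ml LTA at 24 h, and 5 to 9 for untreated cells over time. For the difference in response to LTA between states, leaving out each dHL-60 library gave 1 to 2 at 4 h and 0 to 2 at 24 h.

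Signs changed only for values that were not called. With upper-quartile scaling they were -0.054 for ITGAL with 1 µg/ml at 4 h, -0.023 for ITGAX and -0.035 for ITGA5 with 10 µg/ml at 4 h, and -0.052 for ITGA5 with 1 µg/ml at 24 h. ITGAL with 10 µg/ml at 4 h became 0.00086 with RLE scaling and 0.00063 with DESeq2. ITGA5 with 1 µg/ml at 24 h became -0.0022 with RLE scaling, -0.002 with DESeq2 and -0.0013 with only the groups compared. Leaving out each library with 1 µg/ml at 4 h gave -0.432 to 0.203 for ITGAX, -0.306 to 0.369 for ITGAL and -0.444 to 0.154 for ICAM3. With 10 µg/ml at 4 h it gave -0.013 to 0.221 for ITGAX, -0.321 to 0.261 for ITGAL and -0.465 to 0.133 for ICAM3. At 24 h it gave -0.02 to 0.058 for ITGA5 with 1 µg/ml and -0.025 to 0.223 for ICAM3 with 10 µg/ml. For the response at 24 h minus 4 h with 10 µg/ml it gave -0.013 to 0.697 for ITGA4 and -0.174 to 0.693 for ICAM1. Between states it gave -0.056 to 1.258 for ITGAL, -0.911 to 0.51 for ITGA4 and -0.606 to 0.245 for ITGA5. There, leaving out a uHL-60 library compares the states at the other time alone, as given above. For ITGB1 in untreated cells over time, leaving out each library gave -0.093 to 0.292.

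Over all genes, calls between doses at 24 h were 453, against 1354 with no filter, 765 with DESeq2, 800 with only the groups compared and 49 to 662 leaving out each library. Between doses at 4 h they were 1, against 22 with no filter and 2 with DESeq2 or only the groups compared. LTA in uHL-60 gave 23, and 1 with DESeq2. The difference in response to LTA between states at 24 h gave 205, against 652 with no filter, 397 with DESeq2 and 88 to 222 leaving out each dHL-60 library. Leaving out each library gave 1139 to 1758 instead of 2513 for 1 µg/ml at 24 h, 3181 to 4355 instead of 4903 for 10 µg/ml at 4 h, 3138 to 4226 instead of 4853 over time, and 1614 to 2270 and 2660 to 4049 instead of 2461 and 4001 for 24 h minus 4 h with 1 and 10 µg/ml. Upper-quartile scaling moved the median of all genes from -0.04 to -0.16 and -0.17 at 4 h with 1 and 10 µg/ml and from 0.01 to 0.13 between states.

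In the lists at 4 h with 10 µg/ml, higher integrin subunits went from 3 to 5 with no filter and lower ones from 1 to 2 with upper-quartile scaling, and lower selectin genes from 3 to 5. The replicate block changed 2 member counts, that between doses at 24 h and that of 24 h minus 4 h with 1 µg/ml, where ITGA4 was added (1.04, adjusted p = 0.0289). Deviations of same-numbered libraries correlated at -0.196 to 0.377 over 15 pairs of groups, 5 over 0.1. These values do not settle whether the numbers pair samples. The labels do not say that they do, so the main fit had no block. Fits that leave out a uHL-60 library were not run for LTA in uHL-60 or for the difference in response to LTA between states.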
